A study of Mus musculus with 8 samples.

Results

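The lysyl oxidase family of the mouse consists of 5 genes, Lox, Loxl1, Loxl2, Loxl3 and Loxl4, which were taken by gene symbol. All 5 were among the 15747 genes with values, of 55450 listed. Bulk RNA sequencing had been run on 8 Achilles tendon libraries from wild type C57BL/6J mice, 4 labelled injury and 4 labelled sham. In the injury group the lateral side of the right Achilles tendon had been transected with a 1.5 mm ear punch, which left a semicircular defect of 0.75 mm. The sham group was sham-operated, and both groups carried no other allele or agent. The tendon was separated from the soleus muscle before total RNA was extracted. The labels give no age, sex, time after surgery or pooling, and they do not say that each library came from a separate animal, so the p-values rest on the variation among these libraries alone, which may be technical.

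Lysyl oxidases are secreted, copper-dependent amine oxidases. They convert lysine and hydroxylysine side chains of collagens and elastin to reactive aldehydes, which then form the covalent crosslinks that give a tendon its tensile strength. Lox and Loxl1 are made as precursors with a propeptide that procollagen C-proteinases such as Bmp1 remove, whereas Loxl2, Loxl3 and Loxl4 carry scavenger receptor cysteine-rich domains in front of the catalytic domain.

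The values are normalised read counts that the authors had rounded to whole numbers. Their totals were 14568669 to 16263086 in the injury libraries and 13596488 to 15545903 in the sham libraries. Differences were tested with limma on log2(value + 1), with Benjamini-Hochberg adjustment of p-values across the 15747 genes, and a gene was called higher or lower at an adjusted p under 0.05. In that fit 28.5% of genes were called higher and 31.3% lower after injury, and the log2 fold change had a median of -0.02 over all genes. Every injury library lay above every sham library for 26.7% of genes.

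All 5 family genes rose after injury, by 1.42-fold for Loxl4, 1.47-fold for Lox, 2.30-fold for Loxl3, 2.32-fold for Loxl2 and 7.43-fold for Loxl1. The injury and sham libraries did not overlap for 4 of the 5, and the exception was Loxl4. The calls of Lox and Loxl4 were lost under some other ways of treating the values, whereas those of Loxl1, Loxl2 and Loxl3 were kept under all 21 that were run. In bulk tissue, more cells that express a gene and more RNA of that gene per cell cannot be told apart.

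**Figure D1:**
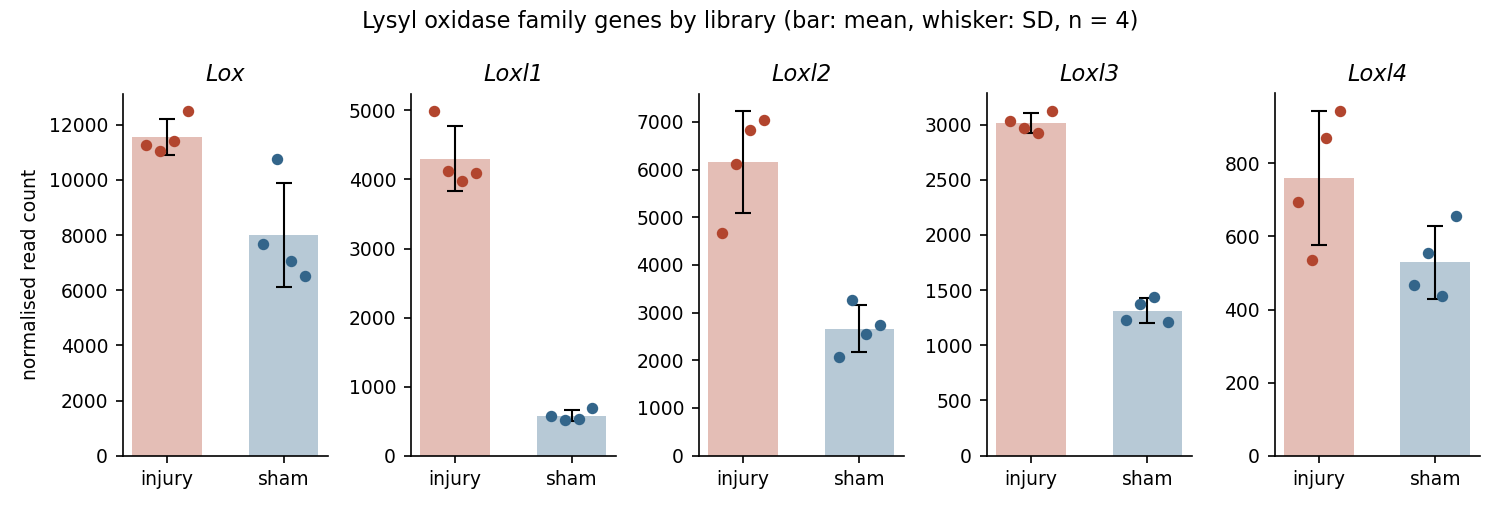
Normalised read count of each lysyl oxidase family gene, one panel per gene with its own axis from 0. Points are libraries, bars are means and whiskers are SD (n = 4 each), with injury on the left and sham on the right. Loxl1 shows the widest gap, with 3982 or more in each injury library and 689 or less in each sham library, and Loxl4 is the gene whose groups overlap.

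Lox encodes the founding enzyme of the family, which acts on fibrillar collagens and elastin. The gene (ENSMUSG00000024529.14) lies on the minus strand at chr18:52516067-52529867 of GRCm38 in the GENCODE M21 annotation and has 7 exons in its longest coding transcript, which encodes 411 residues. It had 11255, 11056, 11403 and 12507 normalised counts in injury libraries 1 to 4, against 7687, 10750, 7044 and 6511 in sham libraries 1 to 4. The injury libraries lay close together, with a coefficient of variation of 5.63%, and the sham libraries were spread by 23.7%, chiefly because sham library 2 came near the injury values. Lox averaged 11555 ± 650 normalised counts after injury and 7998 ± 1897 in sham (SD, n = 4 each), a log2 fold change of 0.56 (SE 0.15, 1.47-fold, 95% interval 1.16 to 1.87, adjusted p 0.0115 by limma). By exact permutation (two-sided) p was 0.0286, which is the lowest value that 4 libraries against 4 allow. Without sham library 2 the log2 fold change was 0.71, and without the library with the most muscle RNA in each group it was 0.43 (adjusted p 0.0517 by limma).

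Loxl1 encodes an enzyme that in mice is needed to maintain elastic fibres. The gene (ENSMUSG00000032334.10) lies on the minus strand at chr9:58287738-58313186 and has 7 exons and a protein of 607 residues. It had 4995, 4128, 3982 and 4090 normalised counts in injury libraries 1 to 4, against 581, 520, 526 and 689 in sham libraries 1 to 4. Every injury library was far above every sham library, and injury library 1 was the highest. The means were 4299 ± 468 after injury and 579 ± 78.3 in sham (SD, n = 4 each), a log2 fold change of 2.89 (SE 0.11, 7.43-fold, 95% interval 6.26 to 8.83, adjusted p 4.16e-07 by limma, exact permutation p = 0.0286). By log2 fold change Loxl1 ranked 105th from the top among the 15747 genes, ahead of Loxl2 at 849, Loxl3 at 866, Lox at 2833 and Loxl4 at 3073.

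Loxl2 encodes an enzyme known for oxidising type IV collagen of basement membranes. The gene (ENSMUSG00000034205.16) lies on the plus strand at chr14:69609068-69695834, with 14 exons and a protein of 776 residues. It had 4676, 6118, 6841 and 7032 normalised counts in injury libraries 1 to 4, against 2076, 3272, 2554 and 2751 in sham libraries 1 to 4. The groups did not overlap, and injury library 1 was the lowest of its group. Loxl2 averaged 6167 ± 1069 after injury and 2663 ± 495 in sham (SD, n = 4 each), a log2 fold change of 1.21 (SE 0.17, 2.32-fold, 95% interval 1.79 to 3.003, adjusted p 0.000252 by limma, exact permutation p = 0.0286).

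Loxl3 encodes an enzyme that in mice is required for normal palate and spine formation. The gene (ENSMUSG00000000693.10) lies on the plus strand at chr6:83034173-83052562, with 14 exons and a protein of 754 residues. It had 3034, 2973, 2925 and 3126 normalised counts in injury libraries 1 to 4, against 1231, 1379, 1436 and 1208 in sham libraries 1 to 4. Relative to its mean, Loxl3 had the smallest spread of the 5 genes within both groups. The means were 3014.5 ± 86.7 after injury and 1313.5 ± 111 in sham (SD, n = 4 each), a log2 fold change of 1.20 (SE 0.07, 2.30-fold, 95% interval 2.05 to 2.58, adjusted p 4.08e-06 by limma, exact permutation p = 0.0286).

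Loxl4 encodes the remaining member, which like Loxl2 and Loxl3 has scavenger receptor cysteine-rich domains. The gene (ENSMUSG00000025185.14) lies on the minus strand at chr19:42593982-42612813, with 15 exons and a protein of 758 residues. It had 693, 535, 870 and 944 normalised counts in injury libraries 1 to 4, against 466, 556, 437 and 657 in sham libraries 1 to 4. The groups overlapped, since injury library 2 lay below sham libraries 2 and 4. The means were 760.5 ± 184 after injury and 529 ± 99.2 in sham (SD, n = 4 each), a log2 fold change of 0.51 (SE 0.19, 1.42-fold, 95% interval 1.05 to 1.92, adjusted p 0.0439 by limma). The exact two-sided permutation test gave p = 0.0857, and leaving out any 1 of 6 of the 8 libraries moved the limma adjusted p above the threshold.

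Promoters were read from a RefSeq table that covers 250 bases before to 50 after each gene's start and that held Loxl4 of the 5 genes. It is shown because signals of the TGF-beta and hypoxia pathways, both measured among the upstream genes described further on, act on promoters through short elements that can be searched for. The window is chr19:42612757-42613056 of GRCm38.p6, read 5′ to 3′ on the minus strand, with a GC content of 75.0%. Capitals mark the letters of a SMAD element (CAGAC on either strand) and of a hypoxia response core (ACGTG or GCGTG on either strand, here read on the opposite strand).
Loxl4 promoter: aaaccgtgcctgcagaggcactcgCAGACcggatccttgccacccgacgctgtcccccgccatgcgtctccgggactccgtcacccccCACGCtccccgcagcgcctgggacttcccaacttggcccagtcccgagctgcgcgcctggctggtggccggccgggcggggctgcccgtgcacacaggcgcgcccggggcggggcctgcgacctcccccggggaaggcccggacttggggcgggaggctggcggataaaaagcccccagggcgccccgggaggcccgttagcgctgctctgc
Each of the pair matched 1 time and TATAAA, searched on either strand, did not match. CAGAC was present in 49.6% of 32851 promoters of the same length, the hypoxia core in 43.8% and TATAAA in 13.6%, so both matches are common letters in such windows and describe this sequence only.

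Levels of different genes were compared per kb of merged exon in the GENCODE M21 annotation. On that scale the family sum was 5559, 5471, 5702 and 6062 normalised counts per kb in injury libraries 1 to 4, against 2547, 3445, 2522 and 2499 in sham libraries 1 to 4. The sum was thus 2.07 times as high after injury, and 3.04 times as high when Lox was left out. Lox was the most abundant member in all 8 libraries, at 2418 ± 136 per kb after injury and 1674 ± 397 in sham (SD, n = 4 each).

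The order of the other members differed between the groups. In all 4 sham libraries it was Lox, Loxl2, Loxl3, Loxl1 and Loxl4, with Loxl1 at 176 ± 23.7 per kb in the place before last, close to Loxl4 at 126 ± 23.6. After injury Loxl1 stood at 1304 ± 142 per kb beside Loxl2 at 1141 ± 198, and each was the higher of the pair in 2 of 4 injury libraries, so their order was not separated from the spread. Loxl3, at 655 ± 18.8 per kb, and Loxl4, at 181 ± 43.6, followed in every injury library. All other neighbours in the order had ranges that did not overlap within a group, although the lowest sham value of Loxl1, 158 per kb, was only just above the highest of Loxl4, 156 per kb.

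**Figure D2:**
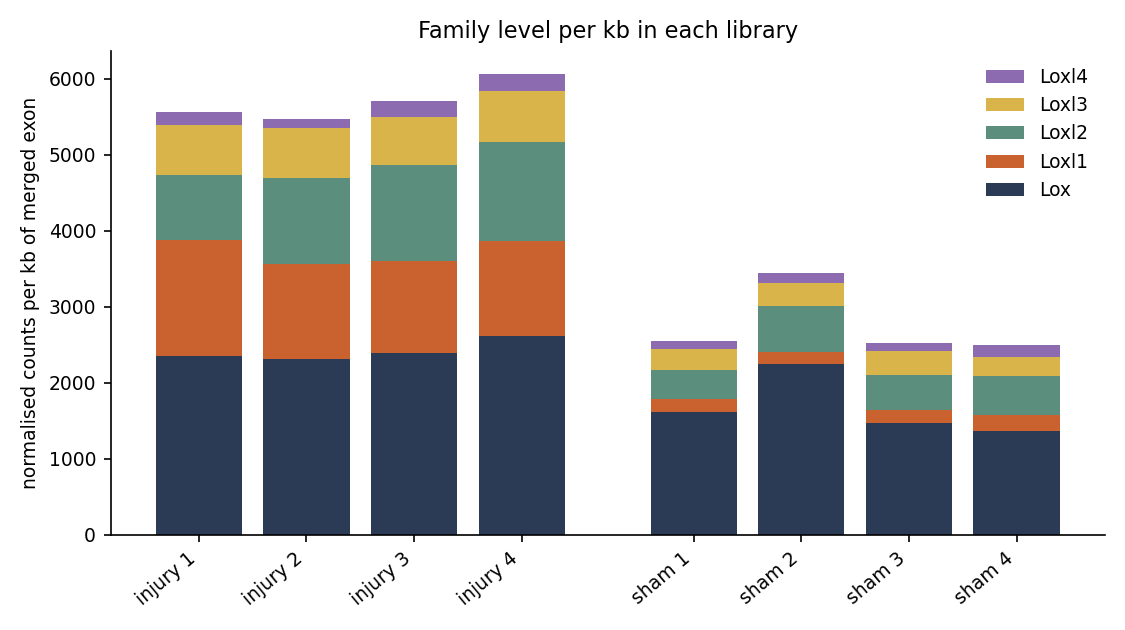
Stacked normalised counts per kb of merged exon for the 5 family genes in each library, injury libraries on the left and sham libraries on the right. The injury stacks reach 5471 to 6062 per kb and the sham stacks 2499 to 3445, and the Loxl1 segment is thin in sham and wide after injury.

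Expressed as a share of the family sum per kb, Lox made up 42.4 ± 0.55% after injury and 60.4 ± 4.83% in sham (SD, n = 4 each), with ranges of 41.9 to 43.2% and 54.5 to 65.3%. Loxl1 made up 22.9 ± 3.05% after injury and 6.55 ± 1.57% in sham. The share of Loxl4 was 3.15 ± 0.64% after injury and 4.63 ± 1.09% in sham, also without overlap, so Loxl4 took a smaller part of the family while its own count was higher. Loxl2, at 19.98 ± 3.01% and 17.9 ± 2.22%, and Loxl3, at 11.5 ± 0.38% and 10.5 ± 1.50%, had overlapping shares in injury and sham. Shares of one sum depend on each other and were not tested.

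Whether the members changed by different amounts was tested on the log2 ratio of each pair within a library, which library scaling hardly touches. With the exact permutation test and adjustment over 10 pairs, 7 pairs differed at the smallest p this design allows (p = 0.0286, adjusted p 0.0408). Whether a pair at that p passes the adjustment depends on how many of the 10 pairs reach it, and pairs share genes. Loxl1 had a larger log2 fold change than each of the others, by 2.34 (SE 0.25) over Lox, 1.68 (SE 0.27) over Loxl2, 1.69 (SE 0.17) over Loxl3 and 2.39 (SE 0.24) over Loxl4. The fold change of Loxl3 was also larger than that of Lox, by 0.64 (SE 0.15), and than that of Loxl4, by 0.69 (SE 0.25), and Loxl2 exceeded Loxl4 by 0.70 (SE 0.21). Without any 1 injury library or without sham library 4, 0 of the 10 pairs passed the adjustment (smallest adjusted p 0.0571), although the exact permutation p of the 4 pairs with Loxl1 was still 0.0286.

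The remaining 3 pairs did not pass. Loxl2 exceeded Lox by 0.66 (SE 0.18) on the log2 scale, with an exact permutation p of 0.0571 (adjusted p 0.0714), and differences of -0.02 to 1.15 were not rejected. Loxl2 and Loxl3 differed in log2 fold change by 0.01 (SE 0.18, exact permutation p = 0.971), with differences of -0.62 to 0.47 not rejected. Lox and Loxl4 differed by 0.05 (SE 0.26, exact permutation p = 0.8286), with a wider range of -0.56 to 1.05 not rejected.

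The summed counts of the main tendon substrates differed between the groups by a larger ratio than 4 of the 5 enzymes. Col1a1, Col1a2 and Col3a1 together had 2209995, 2643691, 2270565 and 2394695 normalised counts in injury libraries 1 to 4, against 654270, 1128937, 692063 and 553243 in sham libraries 1 to 4, a ratio of means of 3.14. Sham library 2 was highest of the sham libraries both for this sum and for Lox. Per 1000 counts of that sum, a ratio chosen after the values were seen and given without a test, Lox had 5.09, 4.18, 5.02 and 5.22 in injury libraries 1 to 4, against 11.7, 9.52, 10.2 and 11.8 in sham libraries 1 to 4. Lox per collagen was therefore 2.21 times lower after injury, and without overlap, although the Lox count itself was higher. Loxl4 per collagen was 2.34 times lower after injury, at 0.323 ± 0.088 and 0.756 ± 0.302 in injury and sham. Loxl1 was the exception, at 1.82 ± 0.30 per 1000 after injury and 0.84 ± 0.33 in sham (SD, n = 4 each), 2.17 times higher and without overlap. The ratios of Loxl2, 2.59 ± 0.45 after injury and 3.68 ± 0.92 in sham, and of Loxl3, 1.27 ± 0.11 after injury and 1.84 ± 0.43 in sham, overlapped between the groups.

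**Figure D3:**
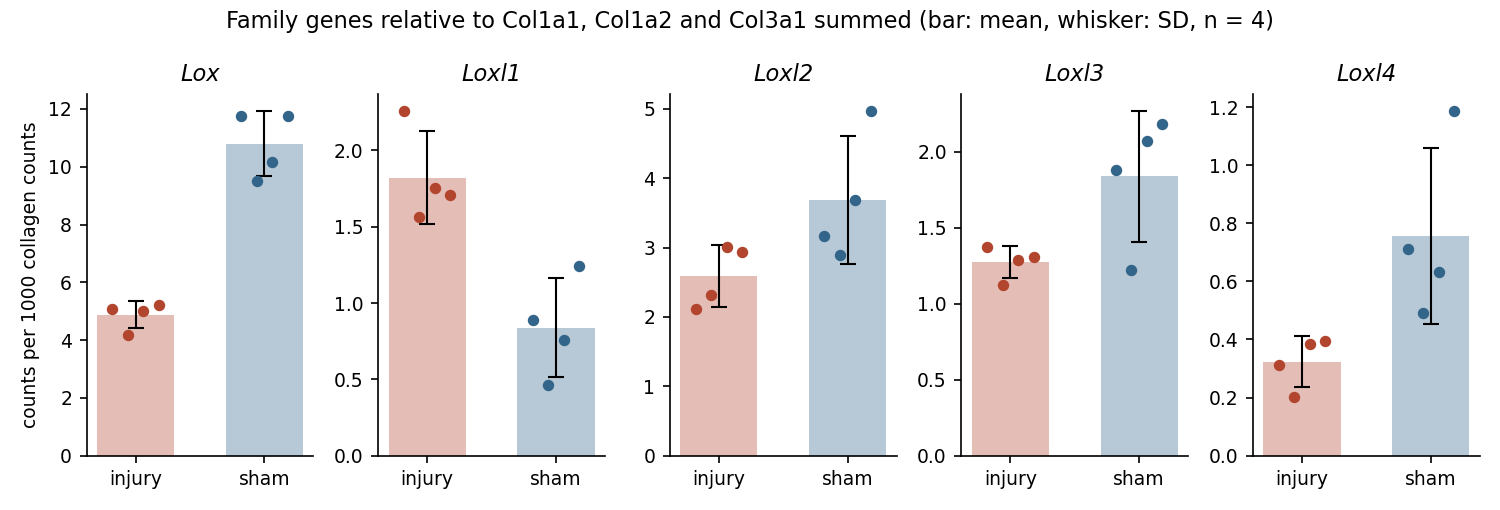
Normalised counts of each family gene per 1000 counts of Col1a1, Col1a2 and Col3a1 summed, one panel per gene with its own axis from 0, injury on the left and sham on the right (points: libraries, bars: means, whiskers: SD, n = 4 each). Loxl1 is higher after injury, Lox and Loxl4 are lower, and Loxl2 and Loxl3 overlap.

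Among 14 collagen and elastin substrates, 11 were called higher and 0 lower, with a median log2 fold change of 1.61. Of all genes 28.5% were called higher and 31.3% lower. The smallest adjusted p-values belonged to minor collagens that take part in fibril nucleation. Col11a1 had 34532 ± 4090 normalised counts after injury and 3664 ± 837 in sham (9.54-fold, adjusted p 1.48e-06 by limma), Col5a1 was 6.25-fold higher and Col5a2 5.51-fold higher. The most abundant substrate, Col1a2, had 1099654 ± 79672 after injury and 403635 ± 126009 in sham. Its groups did not overlap, but it did not pass (2.81-fold, SE 0.79 in log2, adjusted p 0.133 by limma). Col1a1 did not overlap or pass either (3.42-fold, SE 0.70 in log2, adjusted p 0.0524 by limma). Both SEs include a prior variance that follows mean expression, so they do not measure the spread of these libraries alone. Eln, the elastin gene, did not pass (adjusted p 0.0768 by limma). With a single or a robust prior variance 12 of the 14 were called higher. With a filter of mean 50 or more 13 were, so the number of calls depended on the settings.

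Enzymes that modify collagen lysines before secretion, together with chaperones and prolyl hydroxylases that work beside them, were higher for 12 of 13 genes and lower for 0. The shares over all genes were 28.5% higher and 31.3% lower. The median log2 fold change of the list was 1.20. P3h1, a collagen prolyl hydroxylase, had 1984 ± 81.3 normalised counts after injury and 667 ± 76.3 in sham (2.98-fold, adjusted p 2.19e-06 by limma). Plod1, a lysyl hydroxylase, was 3.16-fold higher, Fkbp14, a collagen-binding prolyl isomerase, 2.42-fold higher, and Serpinh1, the collagen chaperone and the most abundant gene of the group, 2.91-fold higher. Colgalt2, which adds galactose to hydroxylysine, had 221 ± 71.3 normalised counts after injury and 223 ± 51.2 in sham and did not pass.

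Proteases that cut the Lox or procollagen precursors, together with matrix proteins that hold or regulate the enzymes, were higher for 14 of 15 measured genes and lower for 0. Over all genes 28.5% were higher and 31.3% lower. The median log2 fold change of the list was 1.58. Postn, a matricellular protein that brings Bmp1 to the matrix, had 13620 ± 1066 normalised counts after injury and 1363 ± 193 in sham (10.05-fold, adjusted p 2.93e-07 by limma). Emilin1, an elastic fibre glycoprotein, was 4.33-fold higher, and Tll1, a protease related to Bmp1, 2.99-fold higher. Fmod, fibromodulin, which binds collagen and modulates Lox action on it, was the most abundant of the group and 2.32-fold higher. Tnxb, a tenascin, had 4929 ± 1165 after injury and 5484 ± 1423 in sham and did not pass.

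Of 12 measured genes of copper supply, 6 were called higher and 4 lower, with a median log2 fold change of 0.22. Among all genes 28.5% were higher and 31.3% lower, so the lower count is near the background. Steap3, a metalloreductase, had 3244 ± 410 normalised counts after injury and 1208 ± 160 in sham (2.69-fold, adjusted p 2.09e-05 by limma). Atp7a, the pump that loads copper into secreted enzymes including lysyl oxidases, was 2.07-fold higher, and the importer Slc31a1 1.44-fold higher. Commd1, a regulator of copper transporters, was 1.31-fold lower. Sod3, the extracellular superoxide dismutase and itself a copper enzyme, was 1.49-fold lower and the most abundant of the group. The higher count was 3 of 12 with the mean of the muscle genes as a covariate. It was also 3 with library totals made equal after muscle genes were left out. The calls over all 15747 genes fell too, from 4481 higher to 2290 and 2893 under these settings. Whether the list differs from all genes was not tested.

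Among other crosslinking enzymes and copper amine oxidases, 2 of 6 measured genes were called higher and 3 lower, with a median log2 fold change of -0.32. Against 28.5% higher and 31.3% lower among all genes, counts in so small a list do not set it apart. Tgm2, a transglutaminase and the most abundant of the 6, had 2057 ± 336 normalised counts after injury and 3724 ± 116 in sham (1.83-fold lower, adjusted p 0.000164 by limma). Aoc3, a membrane copper amine oxidase expressed by adipocytes, smooth muscle and endothelium, was 1.90-fold lower, and F13a1, a transglutaminase subunit, 1.56-fold lower. Pxdn, the peroxidase that forms sulfilimine crosslinks in collagen IV, was 2.26-fold higher. The fall of Tgm2, Aoc3 and F13a1 stood beside lower levels of adipocyte and endothelial markers. Macrophage markers went mostly the other way, with 6 of 9 higher and 1 lower, Cd163 (3.28-fold lower, adjusted p 8.69e-05 by limma). The part of these cells in the fall was not tested.

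Of 17 upstream signals and transcription factors, 11 were called higher and 2 lower, beside 28.5% and 31.3% of all genes. Their median log2 fold change was 0.60. The genes of this list that did not pass were Tgfb3, Smad3, Snai2 and Yap1. Tgfbr2, a TGF-beta receptor, had 5626 ± 315 normalised counts after injury and 2408 ± 200 in sham (2.34-fold, adjusted p 6.32e-06 by limma). The transcriptional coactivator Wwtr1 was 1.97-fold higher, the repressor Zeb1 1.52-fold higher, and Ccn2, a matricellular target of TGF-beta and the most abundant of the group, 3.003-fold higher. Epas1, a hypoxia-inducible factor subunit abundant in endothelium, was 2.15-fold lower, whereas Hif1a, another such subunit, was 2.08-fold higher (adjusted p 5.93e-05 by limma). The lists were described by counts and medians and carry no test of their own.

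**Figure D4:**
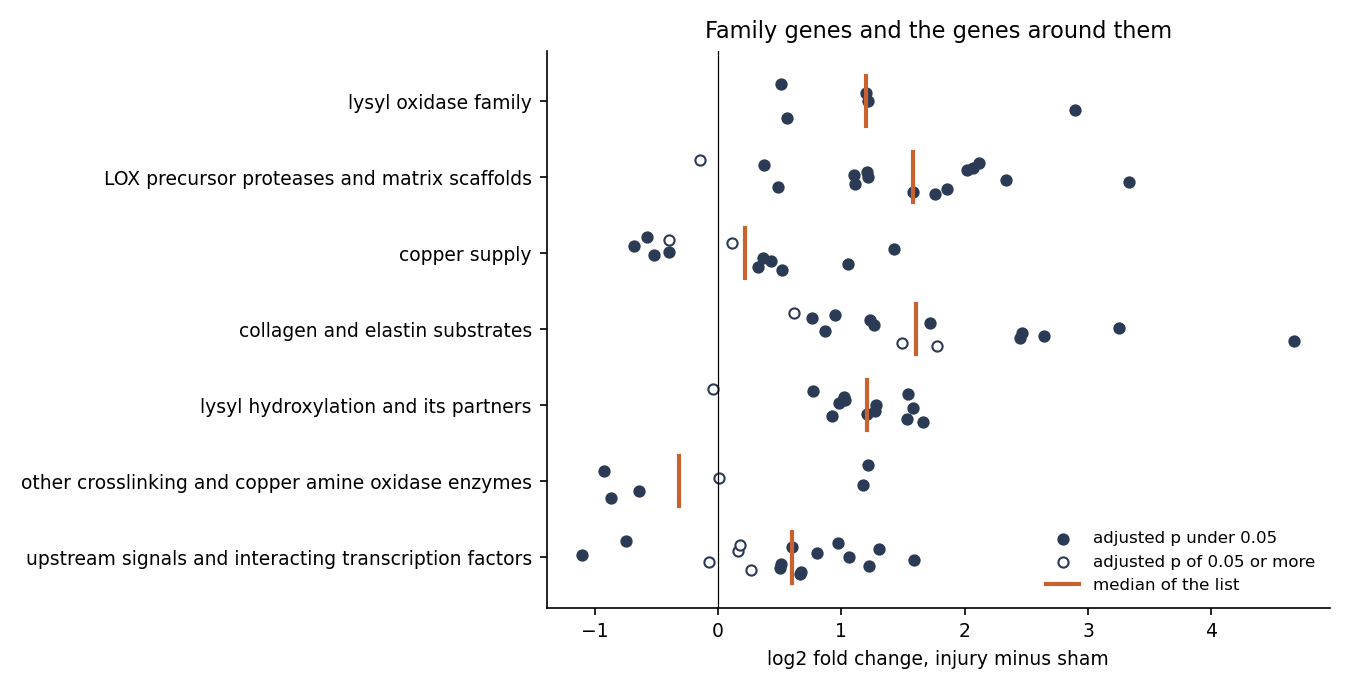
Log2 fold change, injury minus sham, of each gene in the family and in 6 lists around it, with filled points for adjusted p under 0.05 in limma, open points for the others and an orange line at the median of the list. Substrates, lysyl hydroxylation genes and precursor proteases with scaffolds lie mostly to the right of 0, with medians of 1.61, 1.20 and 1.58, and copper supply and other crosslinking enzymes lie on both sides.

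The genes with the pattern most like each member were found by the root mean square difference of log2 values, each gene centred on its mean over the 8 libraries, among 11923 genes with a mean of at least 50. Loxl3 had the closest matches, Kdelr2, a retrieval receptor of the secretory pathway (0.045), Slc39a6, a zinc transporter, and Sec61a1, a subunit of the translocon (0.050 each). Those of Lox were Bbc3, an apoptosis gene (0.098), Pdgfd, a growth factor (0.101), and P4ha1, a collagen prolyl hydroxylase subunit (0.111). Loxl2 lay nearest to Kcp, a secreted BMP regulator (0.105), Col15a1 (0.139) and Fmod (0.153). For Loxl4 they were Uck2, a nucleoside kinase (0.132), Ncs1, a calcium sensor (0.145), and Lama2, a laminin chain (0.149). Loxl1 had the most distant ones, Slc40a1, the iron exporter (0.165), Mxra8os (0.183) and Dio2, a thyroid hormone deiodinase (0.189). These distances describe 8 libraries in 2 groups and were not tested.

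The libraries also differed in the RNA of other tissues. The counts of marker calls stand beside 28.5% of all genes called higher and 31.3% called lower. Tendon markers were present in every library, among them Scx and Tnmd, and 6 of 8 were called higher and 0 lower (15.4 to 17.6% of counts after injury, 4.29 to 8.62% in sham). Most of this share came from Col1a1 and Col1a2, the substrates above and the 2 tendon markers that were not called. It thus largely restates their counts (means of 956702 and 1099654 after injury, 293832 and 403635 in sham). Scx was 1.66-fold and Tnmd 4.61-fold higher. The tendon share was higher in each injury library than in any sham library, as were the counts of Lox, Loxl1, Loxl2 and Loxl3. Its part in their rise was not tested. All 18 skeletal muscle markers were lower after injury, where they summed to 0.34, 0.61, 1.59 and 2.10% of normalised counts in libraries 1 to 4, against 7.04, 7.04, 6.04 and 10.4% in sham libraries 1 to 4. All 9 adipocyte markers were lower (0.046 to 0.081% of counts after injury, 0.237 to 0.382% in sham), as were 6 of 8 endothelial markers (0.054 to 0.078% and 0.086 to 0.116%) and 4 of 6 Schwann cell markers (0.038 to 0.067% and 0.057 to 0.081%), and no marker of these 3 lists was higher. Of 9 macrophage markers 6 were higher and 1 lower (0.176 to 0.225% after injury, 0.078 to 0.126% in sham), of 8 pericyte and smooth muscle markers 2 were higher and 3 lower (0.109 to 0.171% and 0.161 to 0.203%), and all 5 measured cartilage markers were higher (0.083 to 0.165% and 0.0079 to 0.0102%). The marker with the highest mean was Col1a2 for tendon, Acta1 for muscle, Lpl for adipocytes, Pecam1 for endothelium, Pmp22 for Schwann cells, Lyz2 for macrophages, Rgs5 for pericytes and smooth muscle and Acan for cartilage. The 7 neutrophil and 6 lymphocyte markers had no values, so those cells could not be looked for.

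Within the injury group Lox, Loxl2 and Loxl4 were highest in libraries 3 and 4, which had the most muscle RNA. Loxl3 was highest in library 4 and lowest in library 3, and Loxl1 was highest in library 1, which had the least muscle RNA. In sham, library 4 had the most muscle RNA, the highest Loxl1 and Loxl4 and the lowest Lox and Loxl3. Lox was thus high in the injury libraries with most muscle RNA and low in the sham library with most. With the mean log2 value of the muscle genes as a covariate the log2 fold change of Loxl4 was 1.23 (adjusted p 0.00707 by limma) and that of Lox 0.61, which no longer passed (adjusted p 0.141), while Loxl1, Loxl2 and Loxl3 stayed called. Muscle RNA was low in all injury and high in all sham libraries, so muscle content and injury cannot be told apart by such a fit alone.

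**Figure D5:**
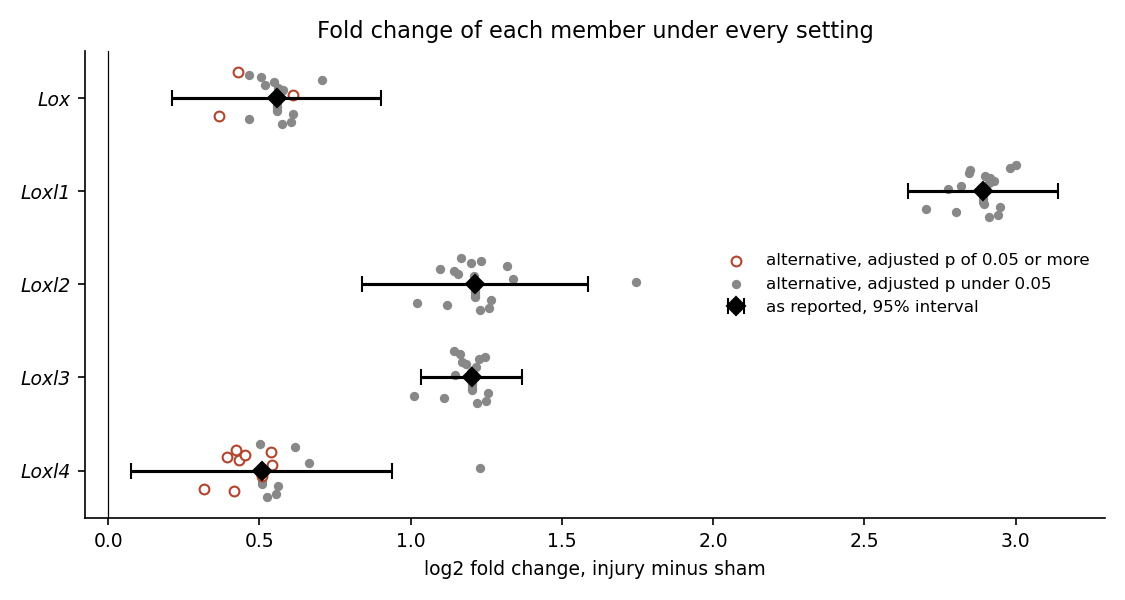
Log2 fold change, injury minus sham, of each family gene as reported (diamond with 95% interval) and under each of 21 other settings (filled: adjusted p under 0.05 in limma, open: 0.05 or more). All points lie above 0, Loxl1 stays between 2.704 and 3.002, and open points occur for Lox and Loxl4.

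Some reads could belong to neighbouring genes, because the strandedness of the counting is not given in the sources used here. Exons of Loxl3 share 535 bases with Htra2, a mitochondrial protease on the opposite strand, which had 884 ± 64.5 normalised counts after injury and 686 ± 46.0 in sham. Exons of Lox share 30 bases with the antisense gene Gm41724 (353 ± 39.5 after injury and 178 ± 44.2 in sham), and those of Loxl2 share 301 bases with the antisense gene Gm27177. Reads on these stretches cannot be told apart between the genes. Within the family itself, Lox and Loxl1 had 2 sequences of 31 bases in common, which may overlap each other, and the other 9 pairs 0.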

How the data were processed

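Total RNA of 8 mouse Achilles tendon libraries (4 injury, 4 sham, grouped by title) had been sequenced. Each deposited value is treated as a score: per the file headers it is a read count after normalisation, which the authors had rounded to a whole number, so no count model was used. The submitters' processing notes name Trimmomatic 0.39, STAR 2.7.6a, StringTie 1.3.5, edgeR 3.12 and the builds mm10 and mm9 without roles. How they normalised is not given in the sources used here. Among 55450 genes, 39703 had no value in any library. Reads per library are unknown, so no counting interval is given.

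From the deposited values, limma 3.58.1 in R 4.3.3 was fitted to log2(value + 1) with group as the only term and the prior variance following mean expression. A minimum value of 1 in 4 or more libraries was required and removed 0 genes. Because 1 is added before the logarithm, fold changes on this log2(value + 1) scale are too small for low genes. Single genes and the 10 pairs of members were tested with exact two-sided permutation tests over 70 regroupings, and the interval of a pair's difference holds the shifts that this test did not reject. Positions, exon lengths and overlaps came from GENCODE M21 (GRCm38), in which 99.9% of the tested identifiers were found. The files hold no coordinates.

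The family and the gene lists (6 of pathway genes, 10 of tissue or cell type markers) were chosen with earlier results of these data known. Named from each pathway list were, in the direction that held more calls, up to 3 called genes by adjusted p, then the leading gene of the opposite direction and the gene of highest mean. Colgalt2, Tnxb, Col1a1, Eln, Tgfb3, Smad3, Snai2 and Yap1 were added after their values were seen, as genes that did not pass. The genes of copper supply and of other crosslinking enzymes that did not pass were not named. Scx, Tnmd, Hif1a and Cd163 were also added after their values were seen. No 2 libraries of a group held the same values, and the labels name no batch. Alternatives covered scaling, pseudocount, low-value filter, prior variance, replicate block, muscle covariate, exon length and left-out libraries.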

Additional observations from a re-analysis of the deposited data

Results flagged for a closer look

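The Loxl1 value of injury library 1, 4995 normalised counts, stood apart from those of the other 3 injury libraries, 3982 to 4128, by 0.856 of the range of the group, which is above the critical value of Dixon for 4 samples. Counts and family shares gave 20 groups that were looked at in this way, and chance flags about 1 in 20. The same library had the lowest Loxl2 count of its group and the smallest share of muscle RNA, 0.34%. Without it the log2 fold change of Loxl1 was 2.82 (adjusted p 1.69e-06 by limma).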

How the results depend on the processing

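Under 21 alternatives the log2 fold changes of all 5 genes stayed above 0, at 0.37 to 0.71 for Lox, 2.704 to 3.002 for Loxl1, 1.02 to 1.75 for Loxl2, 1.01 to 1.26 for Loxl3 and 0.32 to 1.23 for Loxl4. Loxl1, Loxl2 and Loxl3 passed under all 21, Lox under 18 and Loxl4 under 12. These counts include the setting without a low-value filter, which could only repeat the reported fit because that filter had removed 0 genes. Lox did not pass with equal library totals after muscle genes were left out (0.37, adjusted p 0.0622 by limma), with the muscle covariate (0.61, adjusted p 0.141) or without the library with most muscle in each group (0.43, adjusted p 0.0517). Loxl4 did not pass with equal library totals (0.42, adjusted p 0.0565), with equal totals after muscle genes were left out (0.32, adjusted p 0.142) or with a single prior variance (0.51, adjusted p 0.0594). Leaving out each library in turn gave Loxl4 0.39 to 0.67, and it passed only without injury library 2 or sham library 4. The cause of these losses was not tested. With equal totals after muscle genes were left out, the median of all genes shifted by -0.19 on the log2 scale, 3 family genes were called higher, and 2893 genes were higher and 6629 lower, against 4481 and 4921 as reported. Equal library totals gave 3428 higher and 5553 lower, and the muscle covariate 2290 and 1810. The replicate block gave 4635 higher and 5107 lower and changed no family call. Deviations of same-numbered libraries correlated at 0.25, 0.28, -0.01 and 0.49. Injury libraries 2 and 4 correlated best with the sham library of the same number. Injury library 1 correlated about as well with sham library 3 (0.26), and injury library 3 best with sham library 4 (0.20). The numbers were not taken to pair the libraries because the labels do not say so, and a shared replicate factor was not tested. With the longest transcript as length, the Loxl3 level was 736 per kb after injury and 321 in sham. Its share of the family after injury was 12.6% and that of Lox 41.7%, and the order of the members did not change. The sham ranges of Loxl1 and Loxl4 then overlapped, since the lowest Loxl1 was 158 per kb and the highest Loxl4 176. The 7 pairs of members that passed did so under all 6 scaling and pseudocount alternatives. Leaving out each library in turn left 0 of 10 pairs under the adjusted threshold without any 1 injury library or without sham library 4, 6 without sham library 1 and 7 without sham library 2 or 3. The differences in log2 fold change then ran from 2.14 to 2.51 for Loxl1 against Lox, 1.48 to 1.80 against Loxl2, 1.61 to 1.82 against Loxl3 and 2.25 to 2.52 against Loxl4. They were 0.52 to 0.74 for Loxl3 against Lox, 0.54 to 0.82 for Loxl3 against Loxl4 and 0.54 to 0.80 for Loxl2 against Loxl4. The sign was not stable for Lox against Loxl4 (-0.15 to 0.17) or Loxl2 against Loxl3 (-0.073 to 0.141), which did not pass. Depth in reads is unknown.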
